A study of Homo sapiens with 32 samples.

Results

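Of 15180 chromatin loops called in untreated wild-type HEK293 cells, 412 were also called in the 3 other loop lists of the series: wild-type cells with sorbitol, untreated eGFP-YAP cells and eGFP-YAP cells with sorbitol. These 412 loops are the subject here. A loop is listed as a pair of 5 kb anchors, and it was taken as present in another list when a loop there lay on the same chromosome with each anchor within 10 kb. The loops were therefore chosen by being called, and that they occur in all 4 lists is the rule and not a result. The 4 lists together hold 45629 loops (15180, 5906, 18966 and 5577 in the order just given). The 412 loops make up 2.71% of the wild-type control list. Starting from the other lists, the rule found 382 loops (6.47%) of wild-type sorbitol, 406 (2.14%) of eGFP-YAP control and 408 (7.32%) of eGFP-YAP sorbitol. Singly, 7.81% of wild-type control loops had a match in wild-type sorbitol, 40.2% in eGFP-YAP control and 8.12% in eGFP-YAP sorbitol.

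The study mapped contacts between distant DNA segments by in situ Hi-C, in which DNA is cut with MboI and re-ligated inside nuclei, and asked how hyperosmotic stress rewires them. HEK293 is a human embryonic kidney line. Sorbitol makes the medium hyperosmotic, so that cells lose water and shrink, and was present at 200 mM for 1 h in both treated groups. The wild-type groups were untreated or sorbitol-treated cells with 3 replicates each by the labels. The eGFP-YAP groups, untreated or treated in the same way with 4 replicates each, carried YAP, a transcriptional co-activator of the Hippo pathway, tagged with green fluorescent protein. How the tag was introduced and whether the line is a single clone are not given in the sources used here, and the design text describes serum starvation for 1 h only for eGFP-YAP cells. All groups share the HEK293 background, which the growth protocol calls HEK293T. Cell identity could not be checked against marker genes, since loop lists hold no expression. Each condition has 1 list with no replicate, so no test between conditions was possible and no p-value is given. Intervals in brackets are 95% intervals and cover only the counting error of loops or anchors. The lists of the lines also carry different source names, so line and source cannot be told apart. The other 18 of the 32 samples were not analysed here.

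In the prevailing model of loop formation, the ring complex cohesin extrudes a growing loop of DNA until it is halted by the zinc-finger protein CTCF. CTCF binds a directional motif and halts cohesin mainly when the motif points into the loop, so the anchors of such loops often carry motifs that point towards each other. Other contacts join gene starts to each other or to enhancers and need no such motif pair.

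The loops are introduced by the sequences at their anchors, because motif pairs are sequence features that the rule did not use, although most of the 412 loops did not carry a pair. The CTCF core motif (14 bases, at most 1 mismatch) was sought on both strands. A pair was called inward when the left anchor held matches on the plus strand only and the right anchor on the minus strand only. In wild-type control coordinates, 64 of the 412 loops had an inward pair. The pairs shown are 7 without a mismatch, and before them the pair of a 425 kb loop on chromosome 11 that had identical anchors in all 4 lists and the highest mean score rank among the 18 such loops. That pair had 1 mismatch at each anchor. Each line gives 30 bases from the strand that carries the motif, with the motif in capitals and its hg38 position.
Left anchor of the 425 kb loop on chromosome 11, plus strand at chr11:130435120-130435133: gattgtaaCCAGCAGGTGGGAGtgttggca
Right anchor of the 425 kb loop on chromosome 11, minus strand at chr11:130862164-130862177: ctgaaattCCACAAGAGGGCGCccaaggtc
Left anchor of the 875 kb loop on chromosome 7, plus strand at chr7:70857107-70857120: aactctggCCACCAGGGGGCGCtctgcacc
Right anchor of the 875 kb loop on chromosome 7, minus strand at chr7:71733453-71733466: gccaggcgCCAGCAGGGGGCGCtagagcat
Left anchor of the 295 kb loop on chromosome 16, plus strand at chr16:77675908-77675921: cacactatCCAGCAGAGGGCAGgattatac
Right anchor of the 295 kb loop on chromosome 16, minus strand at chr16:77971746-77971759: tcaagtgaCCACCAGAGGGCGCtgcggctc
Left anchor of the 80 kb loop on chromosome 12, plus strand at chr12:54993416-54993429: cctaatgaCCACCAGGTGGCAGcctatacc
Right anchor of the 80 kb loop on chromosome 12, minus strand at chr12:55072291-55072304: tgcccttgCCAGCAGAGGGCAGccacccca
Left anchor of the 285 kb loop on chromosome 3, plus strand at chr3:56702684-56702697: gcttaattCCAGCAGAGGGCAGcaaaactt
Right anchor of the 285 kb loop on chromosome 3, minus strand at chr3:56989075-56989088: aataccggCCAGCAGAGGGCACtcttcact
Left anchor of the 310 kb loop on chromosome 19, plus strand at chr19:13277337-13277350: gaaattgtCCAGCAGATGGCAGcaaatcct
Right anchor of the 310 kb loop on chromosome 19, minus strand at chr19:13589408-13589421: aagactggCCACCAGGTGGCGCcatggctc
Left anchor of the 115 kb loop on chromosome 17, plus strand at chr17:73255856-73255869: tggcctggCCAGCAGGTGGCAGcagcacct
Right anchor of the 115 kb loop on chromosome 17, minus strand at chr17:73370061-73370074: ctcattggCCAGCAGGGGGCGCcaaatgac
Left anchor of the 80 kb loop on chromosome 9, plus strand at chr9:124772194-124772207: cgctgcggCCACCAGGTGGCGCgcggccac
Right anchor of the 80 kb loop on chromosome 9, minus strand at chr9:124853209-124853222: cagagcggCCACTAGAGGGCGCgccagcca
The bases in capitals begin with CCA in all 16 lines, and in each pair they were read from opposite strands. The left motif of the 425 kb, 875 kb, 295 kb, 80 kb chromosome 12, 285 kb and 310 kb loops lay inside the listed left anchor in all 4 lists. The right motif did so in all 4 lists in the 425 kb loop alone among these 8. The right motifs of the 285 kb and 310 kb loops lay in the listed anchor of 1 list each. The motifs of the 310 kb loop lie within CACNA1A, a calcium channel gene, in an exon on the left and in an intron on the right. Introns of VAT1L, ARHGEF3 and SDK2 hold the right motifs of the 295 kb, 285 kb and 115 kb loops, and an intron of CPSF4L holds the left motif of the last. The other motifs shown lie outside protein-coding genes. A motif match describes the sequence and does not show that CTCF was bound.

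CTCF motifs were more frequent at the anchors of these loops than at those of other wild-type control loops. A motif lay in 383 of 824 anchors, 46.5% (43.1 to 49.9). The share was 24.9% over all wild-type control anchors and 8.71% over all 5 kb bins of the genome. Loops in both control lists but neither sorbitol list, 4724 in number, had motifs at 32.2% (31.3 to 33.1) of anchors. The closest class was the 573 loops found in both controls and in eGFP-YAP sorbitol but not in wild-type sorbitol, with 43.4% (40.5 to 46.3), and its interval overlapped that of the 412. The 398 loops found in both controls and wild-type sorbitol only had 38.2% (34.9 to 41.6). Among the 8524 loops of the wild-type control list alone, 17.9% of anchors had a motif.

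The motif pairs mostly pointed inward. A single motif strand at each anchor was found in 77 of the 412 loops, and 64 of these, 83.1% (73.2 to 89.9), pointed inward, against 67.6% over the whole wild-type control list. Of the others, 12 had motifs pointing the same way and 1 pointed outward. Outside chromosome 8, 8 of the inward pairs had no mismatch in total, 26 had 1 and 29 had 2. These counts leave out the inward pair of a 155 kb loop on chromosome 8, whose total is not given here. Loops in both controls and neither sorbitol list had 73.7% inward pairs (69.5 to 77.4, of 475), an interval that overlapped that of the 412. Those shared with eGFP-YAP sorbitol but not wild-type sorbitol had 84.3% (76.0 to 90.1, of 102). Those shared with wild-type sorbitol but not eGFP-YAP sorbitol had 60.4% (46.9 to 72.4, of 53), below the interval of the 412. At either extreme of the 412 stood 93 loops with a motif at both anchors and 122 with none.

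**Figure D1:**
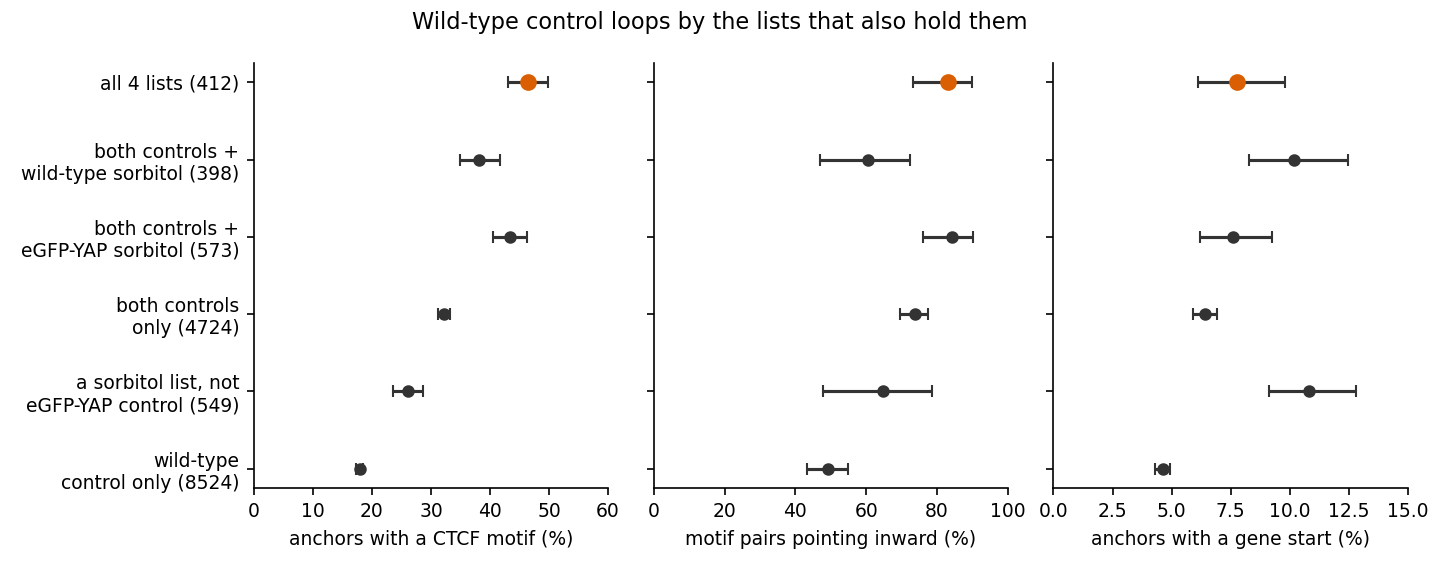
Wild-type control loops by the other lists that also hold them, with the number of loops in brackets; the x axes give the percent of anchors with a CTCF motif, of single-strand motif pairs that point inward, and of anchors with a protein-coding gene start, with 95% intervals. The loops of all 4 lists (orange) have the highest motif share, 46.5%, while their gene-start share, 7.77%, lies among those of the other classes.

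The motif share also moves with the caller's score, so loops of like rank were compared. Each loop's score was turned into its percentile within its list, with 100 the highest. At or above percentile 75 of the wild-type control list lay 299 of the 412 loops, and 50.5% (46.5 to 54.5) of their anchors held a motif. In the same range, the 1604 loops found in both controls and neither sorbitol list had 37.4% (35.7 to 39.1). Loops of both controls and eGFP-YAP sorbitol had 47.8% (44.1 to 51.6), which overlaps the interval of the 412. At or above percentile 75 the 412 thus differed from the class without a sorbitol call but not beyond the intervals from that closest class. From percentile 50 to 75 the 412 had 35.6% (28.0 to 44.1), the class without a sorbitol call 31.5% (29.8 to 33.3) and the closest class 40.7% (35.1 to 46.6), all overlapping. Under percentile 75 the 412 were thinly spread, with 66 loops from percentile 50 to 75, 29 from 25 to 50 and 18 under 25, and motif shares of 35.6%, 34.5% and 38.9%, whose intervals overlap.

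The anchors of the same loops carried different features when read at the coordinates of each list, since the anchors could differ by up to 10 kb. The motif share was 46.5% in wild-type control, 44.4% in wild-type sorbitol, 58.6% in eGFP-YAP control and 54.1% in eGFP-YAP sorbitol. The whole lists gave 24.9%, 21.2%, 34.1% and 28.3%. In each list the 412 loops therefore stood above the list they belong to, and both values were higher in the eGFP-YAP lists than in the wild-type lists. Inward pairs made up 83.1% of 77 pairs, 70.8% of 72, 85.7% of 119 and 80.6% of 108 in the same order, against 67.6%, 54.9%, 76.1% and 71.2% of the whole lists. A motif at either anchor was found in all 4 lists for 180 loops and in no list for 30. An inward pair was found in all 4 lists for 9 loops, in 3 lists for 36 and in no list for 259.

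**Figure D2:**
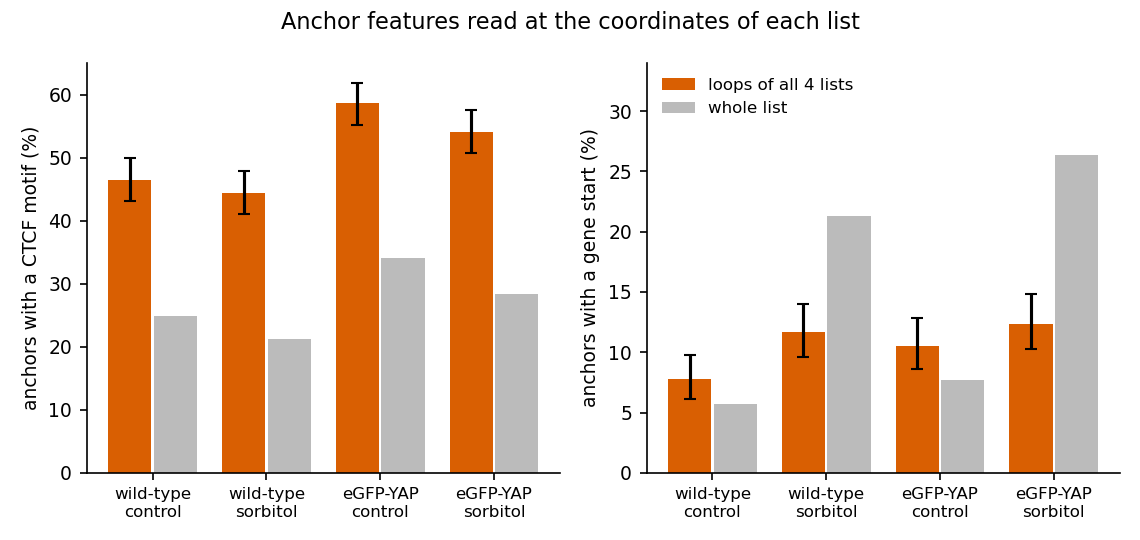
Percent of anchors with a CTCF motif (left) and with a protein-coding gene start (right), read at the coordinates of each list, for the loops of all 4 lists (orange, with 95% intervals) and for every loop of that list (grey). The orange motif bars stand above the grey ones in each list, and the orange gene-start bars stand below the grey ones in both sorbitol lists.

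Motif position gave a measure of how sharply each list placed the same anchor. At 275 anchors, a single motif, pointing into the loop, lay in the stretch that runs from 5 kb before to 5 kb after the anchor's positions in the 4 lists. That motif lay inside the listed anchor in 49.8% (43.95 to 55.7) of cases in wild-type control, 43.6% (37.9 to 49.5) in wild-type sorbitol, 69.1% (63.4 to 74.3) in eGFP-YAP control and 60.7% (54.8 to 66.3) in eGFP-YAP sorbitol. The eGFP-YAP control list placed the anchor on the motif most often, and its interval lay above both wild-type intervals. Within each line the sorbitol share was lower than the control share, with overlapping intervals. Loop number was also highest in the eGFP-YAP control list. It was 15180 in wild-type control and lowest, 5577, in eGFP-YAP sorbitol. Depth is not given in the sources used here, and its part in this order was not tested.

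Anchors shifted by 1 or 2 bins between lists for most loops, within the limit that the rule sets. Both anchors were identical in 144 loops (35.0%) between eGFP-YAP control and eGFP-YAP sorbitol, 114 (27.7%) between the controls, 73 (17.7%) between the sorbitol lists and 59 (14.3%) between wild-type control and wild-type sorbitol. Over all 4 lists the larger spread of either anchor was 0 kb in 18 loops, 5 kb in 140, 10 kb in 196, 15 kb in 47 and 20 kb in 11. Loops with an inward pair in wild-type control coordinates had identical anchors in the control lists in 38 of 64 cases, 59.4% (47.1 to 70.5). Loops without a motif did so in 14 of 122 cases, 11.5% (7.0 to 18.3), an interval well below. The subsets were defined by the wild-type control bins that are compared here, so this gap is not independent of how they were chosen. Between eGFP-YAP control and eGFP-YAP sorbitol the same subsets gave 35.9% (25.3 to 48.2) and 25.4% (18.5 to 33.8), with overlapping intervals. Between the sorbitol lists they gave 17.2% (9.88 to 28.2) and 17.2% (11.5 to 24.9).

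The 18 loops with identical anchors in all 4 lists included several with inward pairs and high ranks. A 385 kb loop on chromosome 10 outside protein-coding genes ranked at 99.2, 85.3, 99.9 and 96.0, with an inward pair. A 230 kb loop ending in CACNA1E, a calcium channel gene, on chromosome 1 ranked at 98.4, 92.7, 98.5 and 96.0, and a 195 kb loop from LIMCH1 on chromosome 4 at 98.5, 70.8, 96.0 and 96.7. Both had inward pairs. A 140 kb loop on chromosome 20 ending in RSPO4, a Wnt co-activator gene, had a motif at its left anchor alone and ranked at 92.0, 94.1, 99.0 and 97.5. A 555 kb loop between UBE2U and RAVER2 on chromosome 1, with an inward pair, ranked at 90.5, 75.1, 89.9 and 92.3. Of the 5 loops just named, all but the RSPO4 loop ranked lowest in wild-type sorbitol. This did not hold for all 18. A 165 kb loop on chromosome 6 with an inward pair, at 97.2, 94.7, 95.5 and 93.3, ranked lowest in eGFP-YAP sorbitol. So did a 180 kb loop ending in NRG2 on chromosome 5, at 94.8, 87.5, 92.1 and 75.6.

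At the limit of the rule, the loops just inside and just outside differed little. In 214 loops the largest shift from the wild-type control anchors was 10 kb, with motifs at 39.5% of anchors and a median percentile of 85.1. Another 139 wild-type control loops lay just outside, matched in all 3 other lists only at 15 kb, with motifs at 40.3% of anchors and a median percentile of 79.8. Loops that shifted by at most 5 kb (180) had motifs at 51.9% of anchors, and the 18 identical loops at 75%.

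On average the loops were listed with slightly wider spans in the sorbitol lists of both lines. From wild-type control to wild-type sorbitol, 177 loops were wider, 132 narrower and 103 the same, so 57.3% (51.7 to 62.7) of those that changed were wider. From eGFP-YAP control to eGFP-YAP sorbitol, 153 were wider, 88 narrower and 171 the same, 63.5% (57.2 to 69.3) wider. Both intervals lay above 50%. The mean change was 0.90 kb (SD 7.79, n = 412) and 1.38 kb (SD 7.12, n = 412), well under the 5 kb bin. The median span was 215 kb and 217.5 kb in wild-type control and sorbitol, and 215 kb in both eGFP-YAP lists. Between the controls the loops were more often narrower in eGFP-YAP cells, with 114 wider and 154 narrower, 42.5% (36.8 to 48.5) wider. A departure from 50% thus also occurred between untreated lists, and the intervals cover loops of single lists, not replicates. Between the sorbitol lists, 143 were wider and 152 narrower, an interval (42.8 to 54.2) that spans 50%. These comparisons share lists and are not independent of each other. Other loops matched in the same pairs of lists were wider with sorbitol in 52.2% (48.2 to 56.3) of 580 wild-type cases and 54.0% (50.8 to 57.2) of 928 eGFP-YAP cases. The eGFP-YAP interval of the 412 only just cleared that of the other loops, and the wild-type intervals overlapped.

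**Figure D3:**
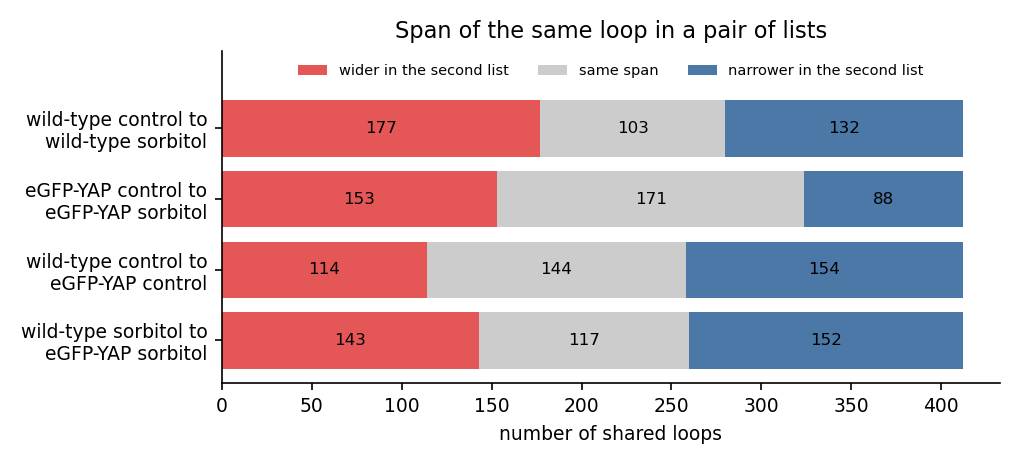
Number of the 412 loops (x axis) that were wider, of the same span or narrower in the second list of each pair. Wider loops outnumber narrower ones from control to sorbitol in wild-type (177 against 132) and eGFP-YAP cells (153 against 88).

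The median span of the 412 loops was 215 kb (200 to 235) in wild-type control coordinates. Loops in both controls and neither sorbitol list had a median of 205 kb (200 to 210), and loops of the wild-type control list alone had 260 kb. Spans under 100 kb were found in 51 of the 412 loops, 100 to 200 kb in 132, 200 to 500 kb in 174, 500 to 1000 kb in 51 and over 1000 kb in 4. Those 4 were 0.995% (0.388 to 2.53) of the 402 wild-type control loops of that length, against 2.25% to 3.08% in the shorter classes. No protein-coding gene started between the anchors in some loops: 57 loops, 13.8% (10.8 to 17.5), enclosed none, against 24.6% (23.3 to 25.8) of loops in both controls and neither sorbitol list. The share was 10.5% (8.22 to 13.2) in loops of both controls and eGFP-YAP sorbitol and 18.3% (14.8 to 22.4) in those of both controls and wild-type sorbitol, and both intervals overlapped that of the 412.

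The 412 loops ranked high in each list, and higher in the control lists, although ranks in lists of different length are not a measure of change. Rank is also not independent of the rule, which required a call in each list, the shorter sorbitol lists included. The median percentile was 89.7 in wild-type control, 76.6 in wild-type sorbitol, 90.4 in eGFP-YAP control and 77.0 in eGFP-YAP sorbitol. At percentile 90 or above stood 205, 75, 213 and 112 of the loops, and under 50 stood 47, 87, 49 and 98. Individual loops were therefore not uniformly strong. In all 4 lists 37 loops stood at 90 or above, 138 did so in none, and 15 loops stood under 50 in every list. Across the 412 loops, Spearman's rho between percentiles was 0.826 for the control lists, 0.625 for the sorbitol lists, 0.419 for control and sorbitol in wild type and 0.50 in eGFP-YAP cells. These describe loops of single lists that share a caller and the same sequence, and loops are not replicates.

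Loops with a gene start at an anchor had lower median ranks in each list, although in wild-type sorbitol the intervals overlapped (57.9 to 78.3 against 74.9 to 79.9). In wild-type control coordinates 56 loops had one, and their median percentiles were 68.3, 67.3, 68.8 and 63.0 in the order of the lists above. The 356 loops without one had 91.1, 77.4, 92.5 and 78.6. The gap within a list was therefore smaller in both sorbitol lists than in the controls. Of the 56 loops, the 18 that held no motif had medians of 64.3, 78.4, 63.3 and 78.8, and the 38 that held one had 77.4, 65.6, 75.9 and 59.9. Gene-start loops without a motif thus ranked below those with one in both controls and above them in both sorbitol lists, but with 18 and 38 loops the intervals overlapped in all 4 lists.

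**Figure D4:**
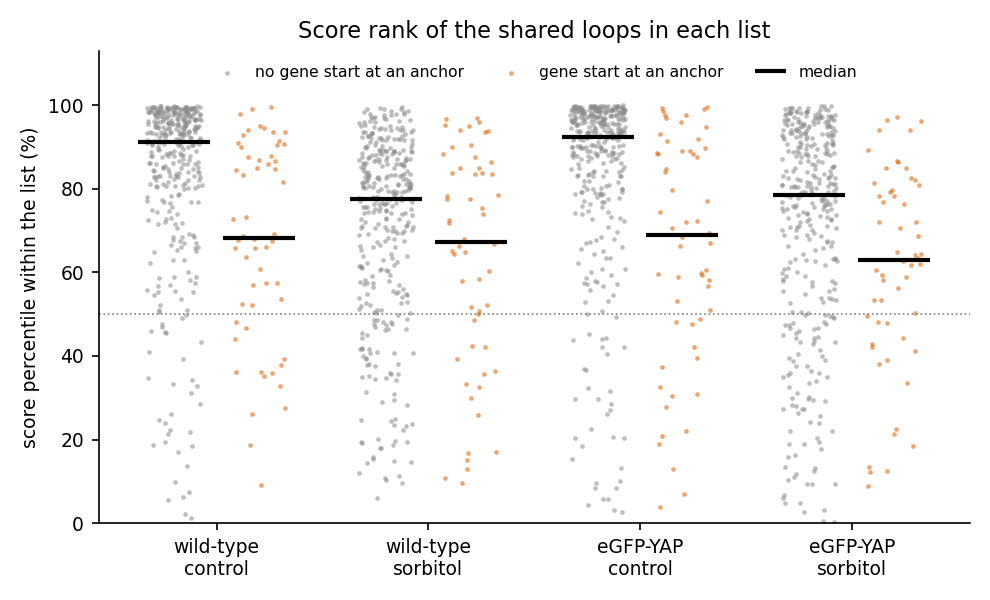
Score percentile within the list (y axis, 100 the highest) of each of the 412 loops in the 4 lists, split by whether a protein-coding gene start lay in an anchor in wild-type control coordinates (56 loops, orange) or not (356 loops, grey), with medians as bars and the middle of the list dotted. Most loops crowd at the top of both control lists, with medians of 91.1 and 92.5 for loops without a gene start, and the orange medians lie between 63.0 and 68.8.

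Gene starts at the anchors were less frequent than in the sorbitol lists as a whole. In wild-type control coordinates 64 of 824 anchors, 7.77% (6.13 to 9.80), held the start of a protein-coding gene, against 5.74% over that list and 3.07% of 5 kb bins of the genome. Loops in both controls and neither sorbitol list had 6.40% (5.93 to 6.92), which overlaps. Those of both controls and wild-type sorbitol had 10.2% (8.26 to 12.5). Those of both controls and eGFP-YAP sorbitol had 7.59% (6.20 to 9.27). Both intervals also overlap that of the 412. At the coordinates of the other lists the counts were 96 anchors (11.7%) in wild-type sorbitol, 87 (10.6%) in eGFP-YAP control and 102 (12.4%) in eGFP-YAP sorbitol, against 21.3%, 7.70% and 26.4% over those lists. The 412 loops thus stood slightly above the whole list in both controls and well below it in both sorbitol lists. The control result changed with rank. At or above percentile 75 of wild-type control the 412 had 4.52% (3.12 to 6.49), and the class without a sorbitol call 5.95% (5.19 to 6.83). From percentile 50 to 75 they had 15.9% (10.6 to 23.1) and 5.83% (5.02 to 6.76). In wild type, 34 anchors held a start in both coordinates, 30 in control only and 62 in sorbitol only. In eGFP-YAP cells these counts were 62, 25 and 40. In both lines more anchors thus held a start in sorbitol only than in control only. Between the untreated lists, 40 anchors held a start in both, 24 in wild type only and 47 in eGFP-YAP cells only. An uneven count thus also occurred without sorbitol.

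Gene starts lay at both anchors of 8 of the 412 loops in wild-type control, 20 in wild-type sorbitol, 7 in eGFP-YAP control and 17 in eGFP-YAP sorbitol, and of 29 in any list. Over the whole lists the share of such loops was 0.626%, 8.79%, 1.23% and 13.3%. In both sorbitol lists 11 loops did so, in both control lists 2, and 5 did so in both sorbitol lists and neither control list. These 5 were picked out after their values were seen. The first joined the start of SMU1, a splicing factor, to that of B4GALT1, a galactosyltransferase, at chr9:33075001-33080000 and chr9:33165001-33170000 in both sorbitol lists. In wild-type control the same loop was listed 5 kb and 10 kb further right, at chr9:33080001-33085000 and chr9:33175001-33180000, with no start at either anchor. Its percentiles were 26.1, 35.8, 15.4 and 3.08, so it ranked low in every list.

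The second of the 5 joined the paired starts of SMPD4 and MZT2B on chromosome 2 to the paired starts of CCDC115 and IMP4, a ribosome biogenesis factor, and ranked at 85.9, 94.1, 72.6 and 95.5. The third joined DPP9, a dipeptidyl peptidase, to FEM1A, a ubiquitin ligase adaptor, on chromosome 19 at 57.5, 93.7, 69.3 and 89.2. The fourth joined WDR45B, an autophagy factor, to TBCD, a tubulin folding cofactor, on chromosome 17 at 52.2, 92.4, 57.8 and 72.7. In these 3 loops both sorbitol percentiles were higher than both control percentiles, which did not hold for the rest of the 5. The 5 were selected through gene starts in the sorbitol lists. How often this order of ranks occurs among all the shared loops is not given here. Whether it goes with gene starts was therefore not tested. The last joined RCC1, the exchange factor of the GTPase Ran, to DNAJC8 in wild-type sorbitol and to the neighbouring start of ATP5IF1 in eGFP-YAP sorbitol, at 49.8, 61.5, 20.4 and 24.3. Of the 6 other loops joining starts in both sorbitol lists, RBX1, a cullin ligase subunit, and EP300, a histone acetyltransferase, were joined in 3 lists, at 55.8, 90.1, 60.05 and 93.0. MED28, a Mediator subunit, and the paired starts of DCAF16 and NCAPG were also joined in 3 lists, at 45.5, 93.4, 29.6 and 63.3.

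**Figure D5:**
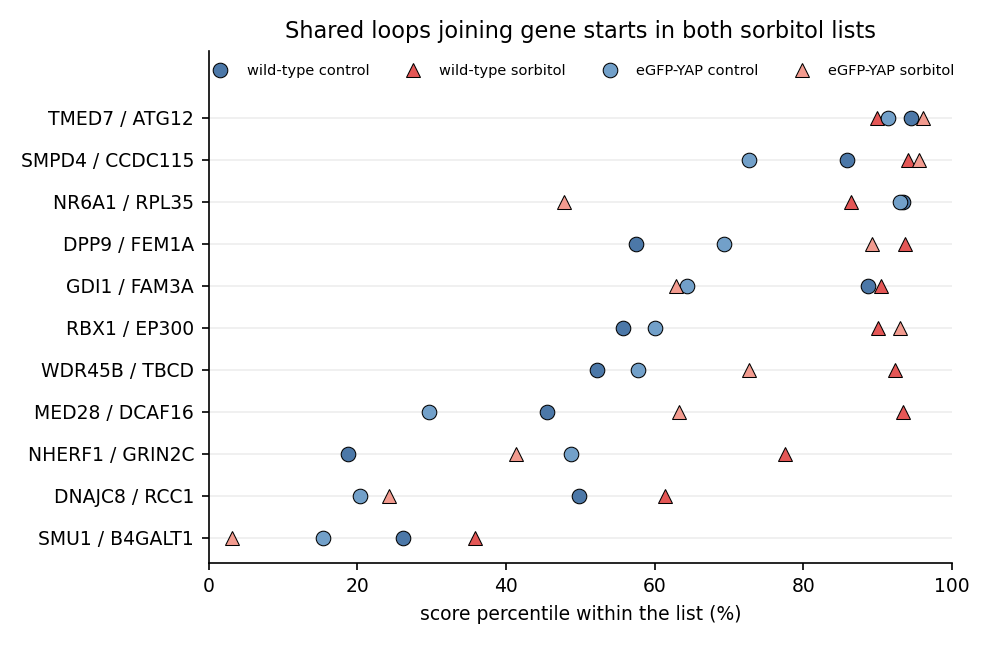
Score percentile within each list (x axis) of the 11 shared loops whose anchors both held a protein-coding gene start in both sorbitol lists; rows name a gene starting in each anchor in wild-type sorbitol coordinates, circles are control lists and triangles sorbitol lists. Both triangles lie to the right of both circles for 5 of the 11 loops, those named for SMPD4, DPP9, RBX1, WDR45B and MED28. The 11 loops were selected through the sorbitol lists, and the share of all the shared loops with this order is not given here.

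Some of the 8 loops with a start at both anchors in wild-type control coordinates are described here. HNRNPD, an RNA-binding protein, was joined to HNRNPDL, its homologue, and ENOPH1 over 60 kb on chromosome 4, at 68.7, 66.2, 48.0 and 78.3. TMED7, a secretory pathway protein, was joined to ATG12, an autophagy protein, and AP3S1 over 210 kb on chromosome 5, at 94.5, 89.97, 91.4 and 96.2, the highest ranks of the 8 on average. Other loops joined MRFAP1L1 to GRPEL1, STOML2 to TESK1, NHERF1 to GRIN2C, and NR6A1 to WDR38. The NR6A1 loop, whose motif pair is the last of the sequences shown, was the 1 loop with a start at both anchors in all 4 lists. In wild-type sorbitol alone its right anchor was listed at the starts of RPL35 and ARPC5L. In eGFP-YAP sorbitol alone its left anchor was listed at the start of OLFML2A.

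Genes known for osmotic stress or YAP did not start in these anchors at wild-type control coordinates. Of 19962 protein-coding genes, 68 (0.341%) started in an anchor of the 412 loops at those coordinates. Counts of these genes at the coordinates of the other lists are not given here. None of 35 YAP and TEAD targets and Hippo genes, 25 osmotic stress and cell volume genes, 20 immediate-early genes, 11 genes of CTCF, cohesin and its regulators or 39 HOX genes did. At that background share such lists would hold few starts, so these counts of 0 say little. Of 227 genes with symbols of developmental transcription factor families, a symbol list that takes in some other genes, 5 started there, among them DLX3, FOXK1 and NKX2-2. The DLX3 loop (135 kb, chromosome 17) had identical anchors in all 4 lists and ranked at 93.6, 58.3, 96.9 and 81.3. The loop to NKX2-2, a neural and endocrine homeobox gene, ran over 275 kb from within KIZ and ranked at 84.8, 67.9, 88.4 and 53.4. FOXK1, a forkhead factor, lay at an anchor of a loop from chr7:4640001-4645000 to chr7:4680001-4685000, which at 40 kb was 1 of the 3 shortest of the 412 in wild-type control coordinates. It was listed at identical anchors in all 4 lists, without a motif, at 67.9, 95.4, 56.6 and 85.1.

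The longest of the 412 loops also had the highest mean rank. It ran over 1315 kb from chr7:25855001-25860000, outside protein-coding genes, to chr7:27170001-27175000 in the HOXA cluster, whose homeobox genes set position along the body axis. In wild-type control coordinates neither anchor held a motif. Its scores were 6.47, 7.05, 8.39 and 11.2 in the 4 lists, each on its own scale, and its percentiles 99.4, 99.5, 97.7 and 99.8. From its wild-type control position, the HOXA anchor lay 10 kb to the left in both sorbitol lists and 5 kb to the left in eGFP-YAP control. The bin listed for it in both sorbitol lists held a motif on the minus strand. A 790 kb loop joined the cluster 10 kb away, at chr7:27160001-27165000, to chr7:26370001-26375000 within SNX10, a sorting nexin gene, at 99.5, 97.8, 98.8 and 96.1. A 475 kb loop ran from chr7:25890001-25895000 to chr7:26365001-26370000 within SNX10, at 98.5, 87.2, 99.1 and 85.3. Its left anchor lay more than 10 kb from that of the longest loop, so those 2 shared no anchor. SNX10 thus lay where the 2 shorter loops met, inside the span of the longest.

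Such chains were the exception. The 824 anchors fell in 818 different bins, and 371 loops shared no anchor within 10 kb with another. The other 41 formed 16 pairs and 3 chains of 3. The second chain of 3, on chromosome 20, joined CTCFL, the germline paralogue of CTCF, at chr20:57510001-57515000, over 80 kb to an anchor beside ZBP1, an innate immune sensor, and ZBP1 over 605 kb to chr20:58205001-58210000. The third member ran over 700 kb from CTCFL to the same far end and had an inward motif pair. The chain on chromosome 15 held the lowest-ranked of the 412 loops in wild-type control, a 95 kb loop between ANP32A and SPESP1 at 1.26, 11.3, 42.1 and 27.4. Rank in these chains thus ran from one end of the lists to the other.

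The other loops with the highest mean percentile, at most 1 per chromosome, lacked gene starts at their anchors. None of the 12, the HOXA and 425 kb chromosome 11 loops included, had a protein-coding gene start in an anchor in wild-type control coordinates, and their spans ran from 160 to 1315 kb. An 855 kb loop on chromosome 1 ending in SMYD3 ranked at 99.3, 96.0, 99.9 and 99.4. A 510 kb loop on chromosome 4 ran from EGF, the epidermal growth factor gene, to ENPEP, an aminopeptidase gene, at 99.4, 94.3, 98.6 and 97.2. A 350 kb loop on chromosome 16 held an inward pair and ranked at 99.7, 97.6, 99.3 and 97.6. Over all 412 loops, 103 had no protein-coding gene touching either anchor, 123 touched a gene at both and 22 lay within a single gene.

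The 412 loops were spread over 23 chromosomes, and their share of a chromosome's wild-type control loops varied. Chromosome 19, the most gene-dense, held 16, 5.71% (3.55 to 9.08) of its 280 loops, followed by chromosome 20 with 4.64% (2.83 to 7.52) and chromosome 16 with 4.23% (2.43 to 7.24). The gene-dense chromosomes 17 and 11 had 3.07% (1.87 to 5.01) and 2.504% (1.57 to 3.97). Chromosome 18 held 4, 1.33% (0.520 to 3.38) of 300, and chromosome 13 held 11, 1.51% (0.845 to 2.68) of 729. Spearman's rho between this share and protein-coding genes per Mb was 0.809 over the 23 chromosomes, which differ also in length and base composition.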

How the data were processed

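The authors deposited 1 loop list per condition, with the columns of the loop caller SIP. Each deposited line gives the anchor coordinates, a peak score without a fixed scale, used here to rank loops within a list, and a probability of enrichment, a fraction that is at least 0.900 in every line and was not filtered further. Caller version and settings, aligner, map normalisation and depth are not given in the sources used here. The submitters' processing notes name hg38, and all anchors lay within its chromosome lengths. Columns of samples without a group numbered 0.

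Loops matched when both anchors lay within 10 kb. The nearest match in each list gave a loop's coordinates there. The CTCF motif scan was tested on simulated data. Gene starts are the 5′ ends of protein-coding genes in GENCODE release 44. Shares have Wilson 95% intervals and medians intervals from order statistics. Loops were treated as independent, which neighbours are not. Python 3.11.15, numpy 2.4.6, pandas 2.3.3 and scipy 1.17.1 were used.

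The loops, gene lists and alternatives were chosen with earlier results of these data known. Loops were named by these rules: the 12 with the highest mean percentile, at most 1 per chromosome; the longest and shortest; those identical in all 4 lists; those with gene starts at both anchors; inward pairs with the fewest mismatches; those with a start of a listed gene; and those sharing anchors. Alternatives were the matching distance, the starting list, a score minimum, merging, motif mismatches, wider anchors, gene types and the coordinates used. Some loops that these rules select are not reported here.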

Additional observations from a re-analysis of the deposited data

Results flagged for a closer look

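Sorbitol and control were set against each other in both lines for 7 measures of the shared loops, and 1 measure moved in opposite directions. The median percentile of loops with an inward motif pair minus that of the other shared loops moved by -5.88 percentile points from control to sorbitol in wild type (from 6.47 to 0.58) and by 0.79 in eGFP-YAP cells (from 3.66 to 4.45). Whether the lines differ was not tested, because each condition has 1 list. Of the shared loops, 64 had such a pair in wild-type control coordinates, and the interval of their median in wild-type sorbitol ran from 70.5 to 85.3.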

How the results depend on the processing

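No paired analysis was possible because each condition has 1 list without replicates and no test was made. The number of loops depended most on the matching distance: 18 with identical anchors, 198 within 5 kb and 821 within 25 kb, and 255 when each list was restricted to its upper 50% by score, which raised the median span to 275 kb. The motif share was 54.0% at 5 kb and 42.8% at 25 kb, 14.2% without mismatches (0.904% of 5 kb bins), 75.7% in anchors widened by 5 kb on each side (22.5% of 15 kb windows), and 58.6% and 54.1% at eGFP-YAP control and sorbitol coordinates. Inward pairs were 91.7% of 12 without mismatches and 70.8% of 72 at wild-type sorbitol coordinates. The gene-start share was 23.1% in widened anchors (8.66% of windows), 18.0% for genes of all types (8.94% of bins), and 11.7%, 10.6% and 12.4% at wild-type sorbitol, eGFP-YAP control and eGFP-YAP sorbitol coordinates. The cause of these shifts was not tested beyond each alternative's construction. The other alternatives kept each share and the median span within its interval and the number of loops between 354 and 412, among them requiring all 4 lists to lie within 10 kb of each other, which was chosen after seeing the data and left 354 loops. Depth is unknown, and a loop not listed may lie below what a list could detect.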
